A study of Trametes versicolor with 12 samples.

Results

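DyP1 and DyP2 are the genes of the white-rot fungus Trametes versicolor that carry the dye-decolorizing peroxidase symbol in the RefSeq gene table. They were taken by protein number, 48870 for DyP1 and 48874 for DyP2, and are 2 of the 14296 gene models in the data. RNA was sequenced from bulk mycelium of strains BRFM1218 and 1956-1252, each grown on agar medium with 4% malt and harvested after 2 or 4 weeks, with 3 cultures in each of the 4 groups. All groups thus shared the medium and differed in strain and culture age, and no treatment or genetic change was given in the labels. The comparisons ask how the transcripts of these genes differed between strains and with culture age. Each strain stands for itself here, so a strain difference is a difference between these strains and not between classes of strains. No list of markers for mycelium was used to check the tissue label.

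Dye-decolorizing peroxidases are haem enzymes that use hydrogen peroxide to oxidise their substrates. They are named for the breakdown of anthraquinone dyes, which most other peroxidases attack poorly, and also oxidise phenols. Their fold and haem pocket differ from those of the lignin, manganese and versatile peroxidases, the class II enzymes for which white-rot fungi are best known, and their part in the life of these fungi is less settled. Many fungal members are secreted.

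DyP1 was the abundant transcript of the pair in BRFM1218, where DyP2 stayed below 3 RPKM, whereas in 1956-1252 the levels of both lay within an order of magnitude of each other. Levels are given first as RPKM, the deposited count of reads per kilobase of gene model, scaled to the reads assigned to genes, since this scale allows the pair to be compared. In BRFM1218 at 2 weeks the DyP1 level was 1192, 1201 and 1201 RPKM in the 3 libraries, and at 4 weeks it was 435, 473 and 405 RPKM. In 1956-1252 it was 23.9, 25.6 and 25.5 RPKM at 2 weeks and 58.5, 57.7 and 59.7 RPKM at 4 weeks. All BRFM1218 libraries were thus above all 1956-1252 libraries, and no pair of groups overlapped. Such separation was common, on counts scaled for the tests below. The strains did not overlap in 86.6 and 86.1% of tested genes at 2 and 4 weeks. The ages did not overlap in 58.8% in BRFM1218 and 65.5% in 1956-1252. The share of genes with all 4 groups apart was not computed. The order of the DyP1 groups was BRFM1218 at 2 weeks, BRFM1218 at 4 weeks, 1956-1252 at 4 weeks and 1956-1252 at 2 weeks.

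DyP2 showed the reverse order of strains. Its level was 0.771, 1.53 and 1.36 RPKM in BRFM1218 at 2 weeks and 2.82, 2.92 and 2.94 RPKM at 4 weeks. In 1956-1252 it was 13.5, 14.4 and 15.2 RPKM at 2 weeks and 115, 112 and 109 RPKM at 4 weeks. The groups again did not overlap, which is common for strains and ages in these data. The group of 1956-1252 at 4 weeks was highest, followed by 1956-1252 at 2 weeks, BRFM1218 at 4 weeks and BRFM1218 at 2 weeks. The step between 1956-1252 at 2 weeks and BRFM1218 at 4 weeks was not tested.

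**Figure D1:**
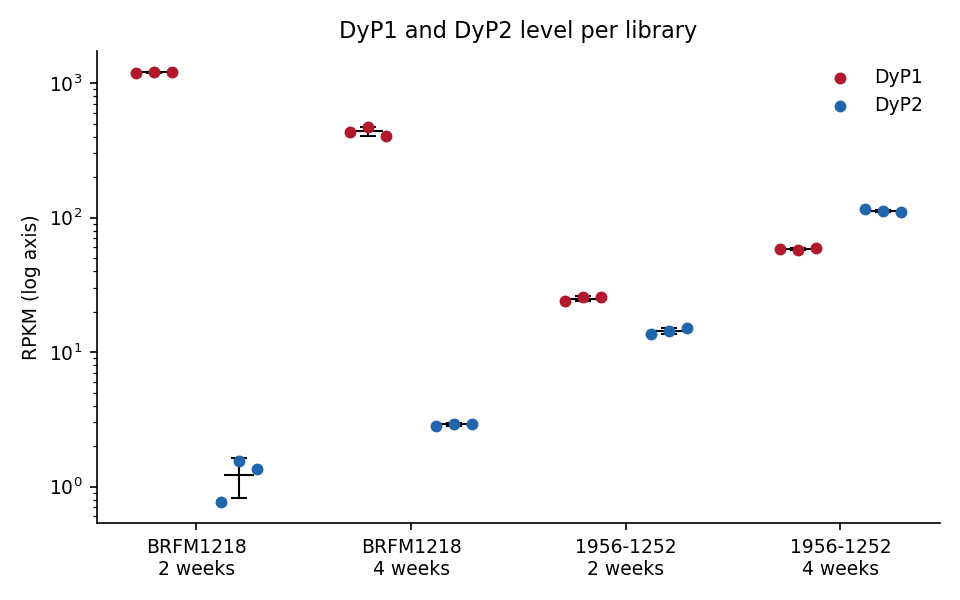
Level of DyP1 (red) and DyP2 (blue) in each of the 12 libraries, as RPKM on a log axis, by strain and culture age. Points are libraries and black marks are the mean ± SD of 3 libraries. DyP1 falls from BRFM1218 to 1956-1252 while DyP2 climbs, and DyP2 lies above DyP1 in the group of 1956-1252 at 4 weeks alone.

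These levels rested on many reads, except DyP2 in BRFM1218. Libraries held 31763162 to 74647672 reads assigned to genes, of which 98.7 to 99.17% were unique. DyP1 had 2236 to 67624 reads per library and DyP2 in 1956-1252 had 1341 to 9698. DyP2 in BRFM1218 had 36, 84 and 77 reads at 2 weeks and 251, 273 and 147 reads at 4 weeks, all above the 3 reads taken as the floor. In BRFM1218 at 2 weeks, replicate 1 stood below the others for DyP2, with a 95% counting interval (exact Poisson) of 0.54 to 1.07 RPKM against 1.22 to 1.90 RPKM for replicate 2. Intervals and floors cover counting error only.

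The spread between cultures is given as the coefficient of variation of RPKM over 3 libraries. The coefficient of variation of DyP1 was 0.423% in BRFM1218 at 2 weeks, where reads alone give a counting error of 0.385 to 0.426% per library, and 7.85% in the same strain at 4 weeks. In 1956-1252 it was 3.74% at 2 weeks and 1.68% at 4 weeks. For DyP2 it was 32.7% in BRFM1218 at 2 weeks and between 2.32 and 5.70% in the other groups. Reads of the pair were almost never shared with another place in the genome. Of 312558 DyP1 reads in the 12 libraries 8 were not unique, and of 33642 DyP2 reads 1 was not.

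Set among all 14296 gene models of a library by RPKM, DyP1 ranked 129 to 132 in BRFM1218 at 2 weeks and 367 to 433 at 4 weeks. In 1956-1252 it ranked 4964 to 5246 at 2 weeks and 2627 to 2725 at 4 weeks. DyP2 ranked 9964 to 10806 in BRFM1218 at 2 weeks, 9208 to 9331 in that strain at 4 weeks, 6682 to 7072 in 1956-1252 at 2 weeks and 1378 to 1460 in that strain at 4 weeks. DyP1 took 0.175 ± 0.00074% of all gene reads in BRFM1218 at 2 weeks (SD, n = 3), and DyP2 took 0.0165 ± 0.0004% in 1956-1252 at 4 weeks, its highest group.

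The strain comparison asked how far each gene differed between 1956-1252 and BRFM1218 at a given age. It was tested on counts of all reads with edgeR's quasi-likelihood test over 12648 genes, after scaling libraries by trimmed means of M values (TMM), and a gene was called at a Benjamini-Hochberg adjusted p under 0.05. DyP1 was lower in 1956-1252 at 2 weeks, with a log2 difference of -6.10 (SE 0.06, adjusted p = 4.48e-21), a 68.6-fold difference. At 4 weeks its log2 difference was -3.45 (SE 0.06, adjusted p = 7.49e-19), a 10.9-fold difference. DyP2 was higher in 1956-1252, by 3.02 on the log2 scale at 2 weeks (SE 0.13, adjusted p = 3.91e-13) and by 4.72 at 4 weeks (SE 0.11, adjusted p = 8.37e-17), which are 8.10-fold and 26.4-fold differences.

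Strain differences were common in these data, and the size of those of DyP1 and DyP2 says more than their calls. Of all tested genes, 84.7% were called between strains at 2 weeks and 85.5% at 4 weeks, and the libraries of the strains did not overlap in 86.6 and 86.1% of genes. Ranked by size among the genes lower in 1956-1252 alone, DyP1 was number 109 at 2 weeks and number 392 at 4 weeks. Among the genes higher in 1956-1252, DyP2 was number 1297 at 2 weeks and 692 at 4 weeks. By size in either direction, over all 12648 tested genes, DyP1 was number 551 and 1445 at 2 and 4 weeks. DyP2 was number 1891 and 879 by that order. The strain values depend on the scaling. From mean RPKM, which uses library size alone, the difference of DyP1 was 47.9-fold at 2 weeks and 7.46-fold at 4 weeks, and that of DyP2 11.8-fold and 38.7-fold. The median log2 strain difference of all tested genes moved from 0.09 with TMM to 0.60 with library size alone at 2 weeks, and from 0.11 to 0.66 at 4 weeks. Whether reads of both strains aligned equally well to these gene models was not tested. In these bulk extracts, fewer cells of a type and less RNA per cell cannot be told apart.

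The age comparison asked how each gene changed from 2 to 4 weeks within a strain. In BRFM1218, DyP1 fell 2.77-fold (log2 fold change -1.47, SE 0.05, adjusted p = 2.93e-13 in edgeR) and DyP2 rose 2.31-fold (1.21, SE 0.15, adjusted p = 2.15e-06). In 1956-1252, DyP1 rose 2.26-fold (1.18, SE 0.05, adjusted p = 1.69e-11) and DyP2 rose 7.52-fold (2.91, SE 0.10, adjusted p = 2.57e-13). All 3 libraries of each age lay apart for both genes in both strains. Of all tested genes, 60.4% were called with age in BRFM1218 and 48.6% in 1956-1252, and the libraries of the ages did not overlap in 58.8 and 65.5%.

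By size, the rise of DyP2 in 1956-1252 was number 44 among rises in that strain, and number 46 in either direction over all 12648 tested genes. Its rise in BRFM1218 was number 1015, the fall of DyP1 in BRFM1218 was number 501 among falls, and the rise of DyP1 in 1956-1252 was number 519 among rises. The rise of DyP2 in BRFM1218 was the least precise of these, and it ranged from 0.98 to 1.39 on the log2 scale when any 1 library was left out. DyP1 thus moved in opposite directions with age in the strains, and DyP2 rose in both.

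The age change differed between the strains for both genes. Taken as a log2 difference, with BRFM1218 subtracted from 1956-1252, this interaction came to 2.65 for DyP1 (SE 0.08, adjusted p = 3e-14 in edgeR) and 1.70 for DyP2 (SE 0.18, adjusted p = 6.2e-07). Of all tested genes, 52.9% passed this test. A fall in BRFM1218 together with a rise in 1956-1252, each called, was found in 6.10% of tested genes, and a called rise in both strains in 11.0%.

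The ratio of DyP1 to DyP2 within a library does not depend on how libraries are scaled, and its range covered more than 3 orders of magnitude. In BRFM1218 it was 1547, 783 and 885 at 2 weeks and 154, 162 and 138 at 4 weeks. In 1956-1252 it was 1.77, 1.77 and 1.68 at 2 weeks and 0.509, 0.517 and 0.545 at 4 weeks. DyP1 was thus the more abundant transcript of the pair in 9 of 12 libraries, and DyP2 in the 3 libraries of 1956-1252 at 4 weeks. On the log2 scale the ratio was 10.59, 9.61 and 9.79 in BRFM1218 at 2 weeks, where its SD was 0.52, and 7.24 ± 0.12 at 4 weeks (SD, n = 3). In 1956-1252 it was 0.80 ± 0.04 at 2 weeks and -0.93 ± 0.05 at 4 weeks.

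Between the strains the log2 ratio differed by -8.69 (1956-1252 minus BRFM1218, exact permutation test over 6 and 6 libraries, two-sided p = 0.00216). Libraries were exchanged without regard to age, and this p is the smallest that such an exchange can give. With age the log2 ratio fell by 2.76 in BRFM1218 and by 1.73 in 1956-1252. Within 1 strain 3 libraries against 3 cannot give a two-sided exact permutation p below 0.1, and both strains reached that value. With ages exchanged within strains, over both strains at once, a test chosen after the values were seen, the ratio fell by 2.25 with age (exact permutation test, two-sided p = 0.005, the smallest it can give). In each strain all 3 libraries at 4 weeks lay below all 3 at 2 weeks. The shift toward DyP2 combined a fall of DyP1 with a rise of DyP2 in BRFM1218, and a smaller rise of DyP1 with a larger one of DyP2 in 1956-1252. Whether the shift differed between the strains was not tested.

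**Figure D2:**
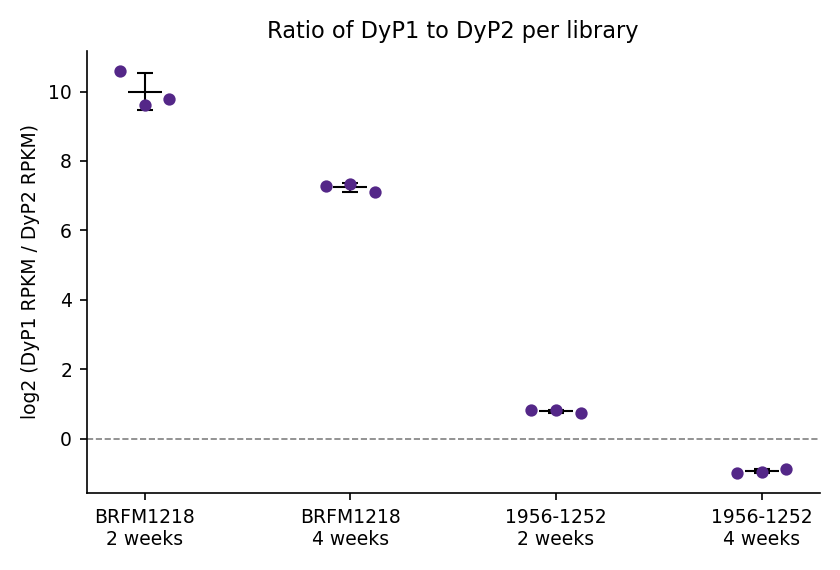
The log2 ratio of DyP1 to DyP2, from RPKM, in each library by strain and culture age. Points are libraries, black marks are the mean ± SD of 3 libraries, and the dashed line is an equal level of both. The 3 libraries of 1956-1252 at 4 weeks lie below the line, and the other 9 above it.

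Taken as a pair, the dye-decolorizing peroxidases held the largest share of the named peroxidase transcripts in BRFM1218 and a smaller one in 1956-1252. The comparison covered the 31 genes with a peroxidase symbol, which besides this pair are 10 lignin, 13 manganese, 3 versatile and 3 haem-thiolate peroxidases. Their levels were summed as RPKM in each library. The pair held 84.8 ± 0.35% of this sum in BRFM1218 at 2 weeks (SD, n = 3), 58.8 ± 1.13% at 4 weeks, and 9.58 ± 0.77 and 20.2 ± 0.58% in 1956-1252. In 1956-1252 it had the smallest share of the 5 families at 2 weeks and the second largest at 4 weeks, behind the haem-thiolate peroxidases and above the manganese peroxidases at 17.4 ± 0.60%. DyP1 alone made up 84.7 ± 0.36% of this sum in BRFM1218 at 2 weeks (SD, n = 3) and 58.4 ± 1.15% at 4 weeks. In 1956-1252 it made up 6.08 ± 0.43% at 2 weeks and 6.93 ± 0.12% at 4 weeks. DyP2 made up 0.0861 ± 0.0278 and 0.388 ± 0.0255% in BRFM1218, and 3.50 ± 0.35 and 13.2 ± 0.52% in 1956-1252, at 2 and 4 weeks.

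DyP1 was the highest of the 31 genes in all 6 BRFM1218 libraries. The next highest there was VP2, a versatile peroxidase gene, at 72.8 to 75.1 RPKM at 2 weeks and 61.9 to 64.3 RPKM at 4 weeks. In 1956-1252 the highest was HTP1, a gene of the haem-thiolate peroxidases, which bind haem through a cysteine, at 111 to 114 RPKM at 2 weeks and 288 to 291 RPKM at 4 weeks. DyP2 was number 19 to 26 of the 31 in BRFM1218 at 2 weeks, number 7 to 9 in 1956-1252 at 2 weeks and number 2 in all 3 libraries of 1956-1252 at 4 weeks. DyP1 was number 4 or 5 in every 1956-1252 library.

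**Figure D3:**
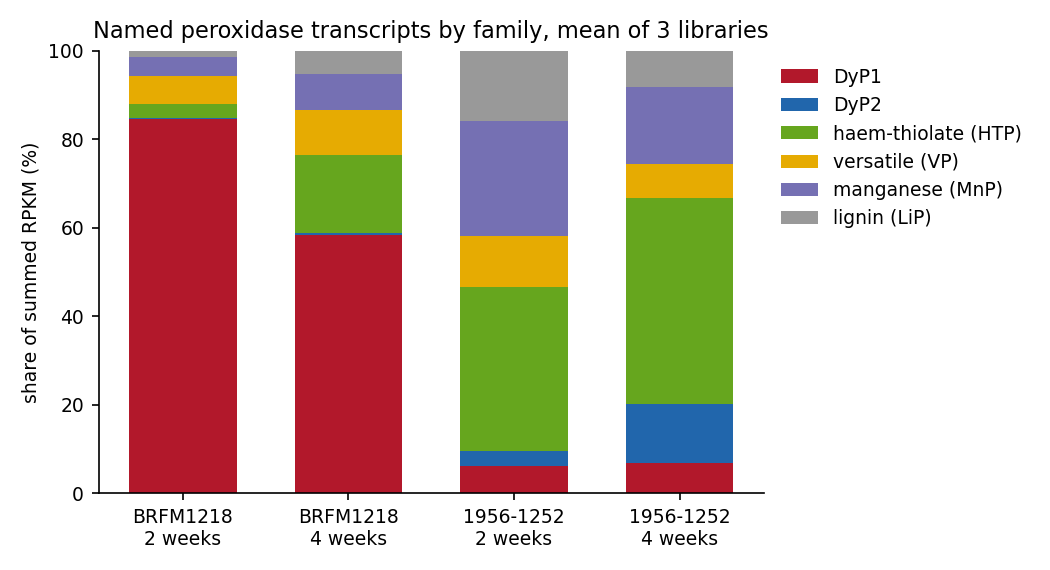
Share of the summed RPKM of 31 named peroxidase genes held by DyP1, DyP2 and each other family, as the mean of 3 libraries per group. The DyP1 bar (red) is 84.7 and 58.4% in BRFM1218 and 6.08 and 6.93% in 1956-1252, and the DyP2 bar (blue) is largest in 1956-1252 at 4 weeks, at 13.2%.

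The change of this share had 2 components. The summed level of DyP1 and DyP2 was 1200 ± 5.46 RPKM in BRFM1218 at 2 weeks (SD, n = 3), 440 ± 34.3 at 4 weeks, and 39.4 ± 1.70 and 171 ± 2.34 RPKM in 1956-1252. The summed level of the other 29 genes was 210 to 223 RPKM and 298 to 317 RPKM in BRFM1218 at 2 and 4 weeks, and 349 to 390 RPKM and 659 to 688 RPKM in 1956-1252. The other genes were thus higher in 1956-1252 on this scale. At 2 weeks, this rise in RPKM was far smaller than the amount by which DyP1 was lower. At 4 weeks, the amounts in RPKM were of similar size. The mean sum of the other genes was then 308 RPKM in BRFM1218 and 676 RPKM in 1956-1252. The mean of DyP1 was 437 RPKM and 58.6 RPKM in the same groups. Both amounts depend on the scaling, since RPKM uses library size alone. The TMM factors at 4 weeks were 0.83 to 0.85 in BRFM1218 and 1.22 to 1.23 in 1956-1252. The amounts with TMM were not computed. The 3 haem-thiolate peroxidases took the largest share in 1956-1252, at 37.0 ± 1.93% and 46.5 ± 0.49%.

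The patterns of DyP1 and DyP2 with age were then looked for in 40 other named genes of oxidative enzymes, which are the 29 other peroxidases, 3 other haem enzymes and 8 laccases and multicopper oxidases. A called fall in BRFM1218 with a called rise in 1956-1252, the pattern of DyP1, was found in 8 of the 40, against 6.10% of all tested genes. These were VP2, VP3at, MnP1s, LDO1, TvLac2, TvLac4, TvLac6 and TvFet3A, which are 2 versatile peroxidases, a manganese peroxidase, a gene of the linoleate diol synthase type, 3 laccases and a gene named for the Fet3 type of multicopper oxidase. A called rise in both strains, the pattern of DyP2, was found in 6 of the 40, HTP2, HTP3, MnP8s, LDO2, TvLac3 and TvLac7, against 11.0% of all tested genes. A called fall in both strains was found in 0 of the 40, against 9.48% of all tested genes, and a called rise in BRFM1218 with a called fall in 1956-1252 in 0, against 7.26%. The call for MnP1s was lost in 8 of 20 alternative settings, and those for TvFet3A and TvLac3 in 2 each. The lists were chosen with earlier results of these data known, so these counts are a description.

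By list, the haem-thiolate peroxidases had 2 of 3 members higher with age in BRFM1218 and 3 of 3 in 1956-1252, with medians of 2.06 and 1.32 on the log2 scale, against 0.06 and 0.01 for all tested genes. The 10 lignin peroxidases had 8 higher and 0 lower in BRFM1218 (median 1.04), and 0 called in 1956-1252 (median 0.17), where the setting of library size alone called 1. Of the 13 manganese peroxidases, 4 were higher and 2 lower in BRFM1218 and 4 higher and 0 lower in 1956-1252. The 8 laccases and multicopper oxidases had 2 higher and 5 lower in BRFM1218 and 6 higher and 0 lower in 1956-1252. The 3 versatile peroxidases had 1 higher and 2 lower in BRFM1218, and 2 higher and 0 lower in 1956-1252. The 3 other haem enzymes had the same counts. Of all tested genes, 33.0% were higher and 27.4% lower with age in BRFM1218, and 25.1 and 23.4% in 1956-1252.

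DyP1 and DyP2 lie near each other. In RefSeq's gene table for strain FP-101664 SS1 of this fungus, 3 annotated genes stand between them. The table does not name its sequences, so a new sequence was taken to open where start positions drop. Divided in this way, the pair falls on the same sequence, with 984 annotated genes. Start positions were used for this and for the order of genes, and not for distances, since the sources used here name no build for the counts. The 3 genes between the pair and the 3 on each outer side have no symbol, and their functions are not named in the files. All 9 were read in all 12 libraries and tested.

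The 3 genes between the pair differed less than 2-fold between the strains at both ages with TMM scaling. The gene next to DyP1 on the inner side, TRAVEDRAFT_72801, was at 61.9 to 62.9 RPKM in BRFM1218 at 2 weeks and 54.5 to 56.9 RPKM in 1956-1252 at 2 weeks. Its log2 strain difference was -0.68 (SE 0.05, adjusted p = 1.99e-10 in edgeR). TRAVEDRAFT_72802, in the middle, was at 97.4 to 98.4 RPKM and 102 to 104 RPKM in the same groups, and TRAVEDRAFT_150496, next to DyP2, at 295 to 297 RPKM and 233 to 249 RPKM. The log2 strain differences of these at 2 weeks were -0.44 (SE 0.04) and -0.82 (SE 0.04). That of TRAVEDRAFT_72802 was 0.08 with library size alone (adjusted p = 0.0943), so its direction at 2 weeks depends on the scaling. At 4 weeks they were 0.62 (SE 0.04) and 0.04 (SE 0.04, adjusted p = 0.354). With library size alone these were 1.18 and 0.59, the second of them then called (adjusted p = 3.42e-10 in edgeR), so the bound of 2-fold holds with TMM and not for TRAVEDRAFT_72802 on that scale.

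Over the 9 genes, log2 strain differences ran from -3.58 to 1.83 at 2 weeks, with 2 called higher and 6 lower, against 44.4 and 40.4% of all tested genes. At 4 weeks they ran from -2.35 to 2.60, with 4 called higher and 4 lower, against 44.9 and 40.6%. With library size alone, 4 were called higher and 3 lower at 2 weeks, and 5 higher and 2 lower at 4 weeks. With TMM, 3 of the 9 were called with at least a 2-fold difference at each age, against 52.4 and 51.1% of all tested genes at 2 and 4 weeks. The direction of the strain difference of 4 of them, TRAVEDRAFT_72802, TRAVEDRAFT_150499, TRAVEDRAFT_48869 and TRAVEDRAFT_48875, turned with the scaling at 1 age or both. The largest difference at 2 weeks was that of TRAVEDRAFT_126816, the third gene beyond DyP2, at 61.8 to 67.7 RPKM in BRFM1218 and 7.53 to 8.18 RPKM in 1956-1252 at 2 weeks. It was also lower with age in BRFM1218 (-1.12, SE 0.08, adjusted p = 1.76e-09 in edgeR), while in 1956-1252 its log2 change was 0.11 (SE 0.08, adjusted p = 0.303). On the outer side of DyP1, TRAVEDRAFT_48867 and TRAVEDRAFT_125375 were higher in 1956-1252, by 1.83 (SE 0.17) and 1.31 (SE 0.10) at 2 weeks. TRAVEDRAFT_48869, next to DyP1 on that side, was lower with TMM, with a log2 strain difference of -0.35 at 2 weeks (adjusted p = 0.0349 in edgeR) and -0.48 at 4 weeks (adjusted p = 0.00568). With library size alone it was 0.17 and 0.07, not called at either age, and its call at 2 weeks was also lost without BRFM1218 replicate 1 or 3 or 1956-1252 replicate 1 or 2 of that age (-0.31 to -0.26).

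With age, 1 of the 9 genes was called higher and 4 lower in BRFM1218, and 3 higher and 2 lower in 1956-1252, against 33.0 and 27.4% of all tested genes in BRFM1218 and 25.1 and 23.4% in 1956-1252. The number lower in BRFM1218 was 5 with RLE scaling, and the number higher in 1956-1252 was 4 with library size alone, which also called TRAVEDRAFT_125375 (0.28, adjusted p = 0.0216 in edgeR, against 0.0568 with TMM). TRAVEDRAFT_72802 rose with age in 1956-1252 by 0.96 on the log2 scale (SE 0.04, adjusted p = 1.3e-11 in edgeR), from 102 to 104 RPKM at 2 weeks to 203 to 211 RPKM at 4 weeks. Its log2 change in BRFM1218 was -0.10 (SE 0.04, adjusted p = 0.0508), and with RLE scaling it was called, at -0.12 (adjusted p = 0.0235 in edgeR). TRAVEDRAFT_150496 fell in BRFM1218 by 0.69 (SE 0.04) and rose in 1956-1252 by 0.17 (SE 0.04), in the directions of DyP1 and by less. The interaction was called in 6 of the 9, with a more positive age change in 1956-1252 for 5 of them, against 25.6% of all tested genes in that direction and 27.2% in the other. The 1 call in the other direction, of TRAVEDRAFT_48875 (-0.52, adjusted p = 0.0436 in edgeR), was lost with library size alone (-0.49, adjusted p = 0.0573) and in 9 of 12 fits without 1 library (values over the 12 from -0.59 to -0.40). That of TRAVEDRAFT_48867 (0.77, adjusted p = 0.0137) was lost without BRFM1218 replicate 3 at 2 weeks (0.50, adjusted p = 0.058) and with limma.

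**Figure D4:**
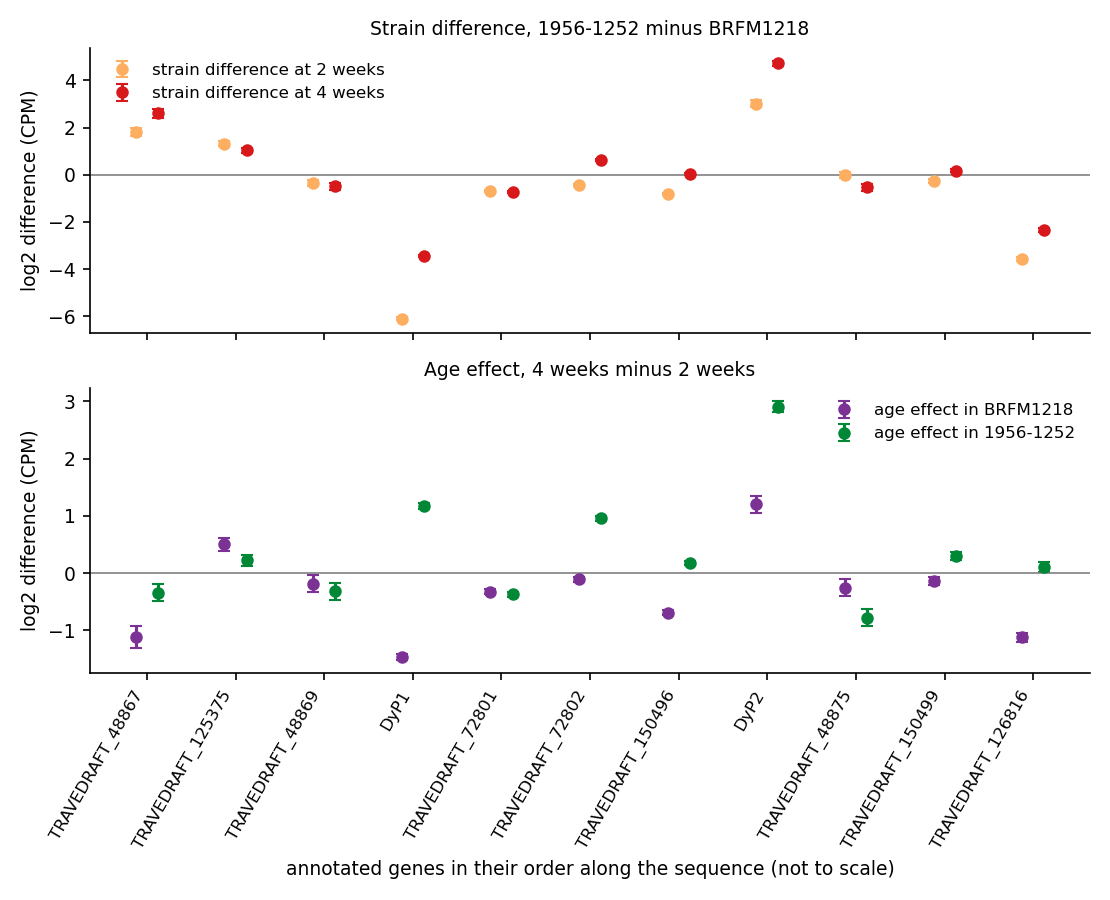
Log2 strain differences at 2 and 4 weeks (top) and log2 age effects in each strain (bottom) of DyP1, DyP2 and the 9 annotated genes around and between them, in gene order and not to scale. Points are edgeR estimates on TMM-scaled counts with bars of 1 standard error. DyP1, at -6.10 and -3.45, and DyP2, at 3.02 and 4.72, differ between strains in opposite directions, and the 3 genes between them lie from -0.82 to 0.62 in the top panel.

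Genes with the pattern nearest to each of the pair were found by a rule of distance. Levels were taken as log2 of CPM (reads scaled to library size and by TMM) plus 0.5, each gene was centred on its own mean, and the root mean square difference from DyP1 or DyP2 over the 12 libraries was computed for 8307 other genes with a mean of at least 10 CPM. The measure counts size as well as shape, and the 12 libraries fall into 4 separate groups. The median gene was 2.40 log2 units from DyP1 and 2.26 from DyP2. Within 1 log2 unit lay 214 genes of DyP1 and 102 of DyP2. DyP1 and DyP2 were 4.37 from each other, which placed DyP2 as number 8087 of 8307 by nearness to DyP1.

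The 5 genes nearest to DyP1 were TRAVEDRAFT_67537, TRAVEDRAFT_33707, TRAVEDRAFT_26920, TRAVEDRAFT_72998 and TRAVEDRAFT_122430, at 0.25 to 0.34 log2 units. Like DyP1 they stood highest in BRFM1218 at 2 weeks and lowest in 1956-1252 at 2 weeks. This order follows from the rule that chose them. TRAVEDRAFT_67537 was at 94.1 to 98.7 RPKM in BRFM1218 at 2 weeks, 51.4 to 53.3 at 4 weeks, and 0.846 to 1.38 and 4.63 to 4.92 RPKM in 1956-1252. TRAVEDRAFT_33707, at 976 to 1045 RPKM in BRFM1218 at 2 weeks, was the closest of the 5 to DyP1 in level there. Its age change in BRFM1218 was -1.95 (SE 0.05) and in 1956-1252 0.60 (SE 0.05), against -1.47 and 1.18 for DyP1.

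The 5 nearest to DyP2 were TRAVEDRAFT_116141, TRAVEDRAFT_123616, TRAVEDRAFT_51694, TRAVEDRAFT_47530 and TRAVEDRAFT_43543, at 0.30 to 0.43 log2 units. TRAVEDRAFT_116141 was at 1.09 to 1.80 RPKM in BRFM1218 at 2 weeks, 3.47 to 6.69 RPKM at 4 weeks, 24.3 to 25.8 RPKM in 1956-1252 at 2 weeks and 255 to 260 RPKM at 4 weeks. All 5 were highest in 1956-1252 at 4 weeks and lowest in BRFM1218 at 2 weeks, as DyP2 was. They differed in the age change by strain. TRAVEDRAFT_47530 changed by 2.02 (SE 0.25) in BRFM1218 and 2.07 (SE 0.14) in 1956-1252, with an interaction of 0.05 (SE 0.33, adjusted p = 0.914 in edgeR), against 1.70 for DyP2. Of the genes beside the pair, TRAVEDRAFT_126816 was number 222 by nearness to DyP1, at 1.01 log2 units, and TRAVEDRAFT_125375 number 1038 by nearness to DyP2. None of these genes has a symbol, and genes were named for likeness of level alone.

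**Figure D5:**
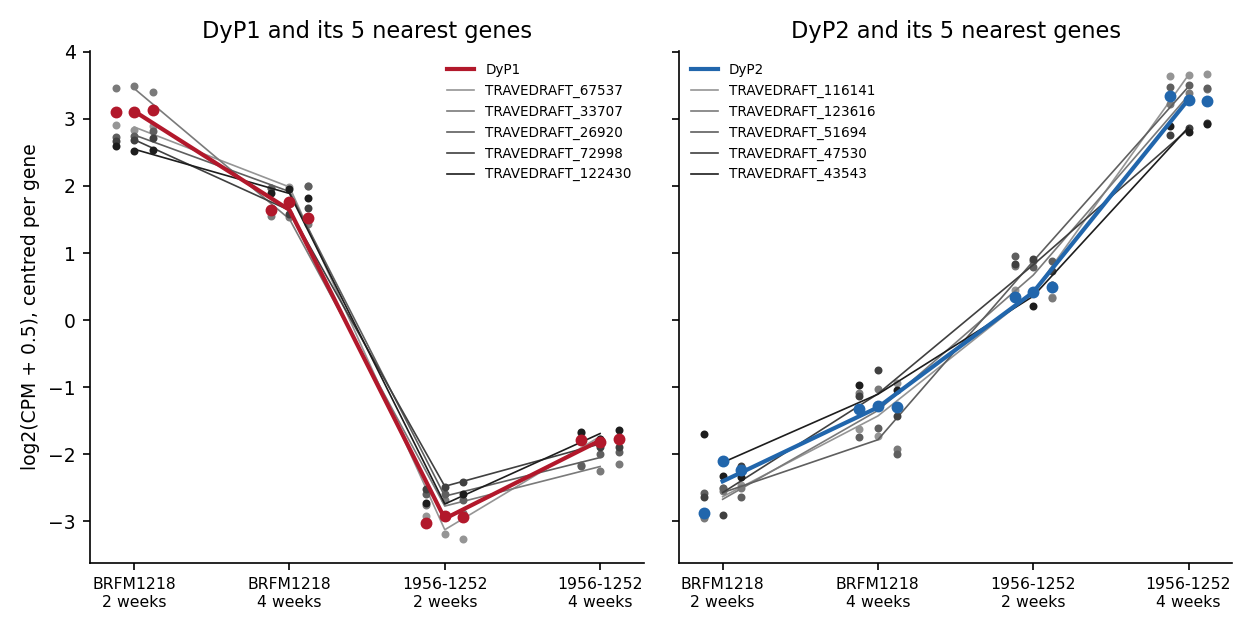
Log2(CPM + 0.5), centred on the mean of each gene over 12 libraries, for DyP1 (left, red) and DyP2 (right, blue) with the 5 genes nearest to each (grey). Points are libraries and lines join the means of 3 libraries per group. The genes at left are highest in BRFM1218 at 2 weeks, and those at right in 1956-1252 at 4 weeks, as DyP1 and DyP2 are. They were chosen for nearness to DyP1 or DyP2, so this likeness follows from the choice.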

How the data were processed

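RNA from mycelium of 12 cultures was sequenced, 3 per strain and age. Per the file headers, the authors deposited for each gene model a count of unique reads, a count of all reads and an RPKM value. RPKM was found to be proportional to all reads over the column total, at 1 length per gene. No aligner, counter, build or strand setting is named in the sources used here. Locus tags of the RefSeq gene table (assembly v1.0) matched 14250 protein numbers, 42 of them with a symbol. Sequences were not used here, so the planned search for promoter motifs was not made.

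Tests ran on all reads in edgeR 4.0.16 (R 4.3.3). Of the gene models, filterByExpr kept 12648, both members among them. The model had TMM scaling and 1 mean per group, with 8 residual degrees of freedom, and Benjamini-Hochberg adjustment ran over all tested genes. Each standard error is the absolute log2 fold change divided by the root of F. Ratios were compared by exact permutation tests. Replicates differed by more than sampling noise in every pair (chi-square per gene 5.11 to 33.3). The labels speak of separate cultures, so p-values measure the spread between cultures. In edgeR each gene's estimate of this spread is drawn toward a trend over all genes. The edgeR p-values thus do not rest on the 8 residual degrees of freedom of 1 gene alone.

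Named genes were the members, the 5 nearest by pattern, 3 annotated genes on each side, and genes of 6 lists taken by symbol. VP2 and HTP1 were named as the highest other peroxidases after their values were seen. The members and lists were chosen with earlier results of these data known. Fits were checked on simulated counts. There a 2-fold change was called in 94% for age in BRFM1218, 94% for strain at 2 weeks and 81% for the interaction. A 1.25-fold change was called in 37, 44 and 11%, so a gene not called may still differ by a small amount. Alternatives were other scalings, no filter, DESeq2 1.42.0, unique reads, limma 3.58.1 on log2(RPKM + 1), a replicate block, only the groups compared, and each library left out.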

Additional observations from a re-analysis of the deposited data

Results flagged for a closer look

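The age change of DyP1 differed between the strains by 2.65 on the log2 scale, and that of DyP2 by 1.70 (age change in 1956-1252 minus that in BRFM1218, edgeR). Both were singled out because the difference between the strains itself passed its test, which it did in 52.9% of all tested genes. For DyP1 all 3 BRFM1218 libraries at 4 weeks lay below those at 2 weeks and all 3 of 1956-1252 above, and for DyP2 the libraries at 4 weeks lay above in both strains. The ages did not overlap in 58.8% of tested genes in BRFM1218 and 65.5% in 1956-1252. No group held enough libraries for a search for single outlying samples.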

How the results depend on the processing

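For DyP1, DyP2, their ratio, the counts of called genes and the counts of listed genes by age pattern, all 397 values recomputed under other settings kept the direction and side of the threshold of the reported result, or stayed within 1.5 times a reported count. Without any 1 library, the log2 age change of DyP1 ran from -1.54 to -1.41 in BRFM1218 and from 1.13 to 1.19 in 1956-1252, and that of DyP2 from 0.98 to 1.39 and from 2.85 to 2.95. Among the age changes of the pair, that of DyP2 in BRFM1218 moved most under the other settings, to 0.83 with limma on log2(RPKM + 1), a scale that understates changes of low genes. Strain differences moved by more. For these, library size alone gave 3.53 for DyP2 at 2 weeks and 5.28 at 4 weeks, and limma gave -5.53 and -2.88 for DyP1. Replicate numbers are shared between groups in the labels, but deviations of same-numbered libraries correlated at -0.297 to 0.178 over genes, against -0.266 to 0.306 for different numbers, so the numbers were not taken to pair cultures. With the replicate block, the interaction of DyP1 and DyP2 stayed called, 6527 genes passed the interaction test against 6687 without it, and the exact p of the ratio between strains was 0.0312, the smallest that exchange within pairs can give. Depth limits DyP2 in BRFM1218, with 36 to 273 reads per library. The age test of the ratio in 1 strain cannot pass with 3 libraries a side, and says nothing about stability. The 9 genes around and between the pair depended more on the setting, in alternatives added after the data were seen. Of their 936 recomputed values, 25 turned direction and 55 crossed the threshold without turning. The strain difference of TRAVEDRAFT_48875 at 2 weeks, -0.01 with TMM, was 0.0058 with RLE, 0.29 with upper quartile, 0.50 with library size alone, 0.0081 with no filter, 0.0069 with DESeq2 and 0.44 with limma, and ran from -0.075 to 0.05 without 1 library. That of TRAVEDRAFT_150499 at 2 weeks was 0.041, 0.25 and 0.23 with upper quartile, library size alone and limma. With library size alone and limma, TRAVEDRAFT_72802 at 2 weeks was 0.0792 and 0.0784, TRAVEDRAFT_48869 0.17 and 0.15 at 2 weeks and 0.0665 and 0.0667 at 4 weeks, and TRAVEDRAFT_48875 0.0151 and 0.0075 at 4 weeks. Interactions that were not called ran across 0 without 1 library, from -0.29 to 0.0055 for TRAVEDRAFT_48869 and from -0.10 to 0.0078 for TRAVEDRAFT_72801. The call for the strain difference of TRAVEDRAFT_150499 at 4 weeks was lost in 4 of 12 fits without 1 library, whose values ran from 0.14 to 0.19.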
